A study of Mus musculus with 2 samples.

Results

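Retinoids are the active forms of vitamin A, and cells take up, store, activate and degrade them with a small set of dedicated proteins. Retinol travels in blood bound to retinol-binding protein, enters cells through the receptor STRA6 or by other routes, and is held inside cells by small binding proteins. Retinol is oxidised to retinal and then by the ALDH1A dehydrogenases to retinoic acid, which is escorted by CRABP proteins to nuclear receptors or to CYP26 enzymes that degrade it. In skin, retinoic acid is known for its effects on epidermal differentiation and on the hair follicle.

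The genes described here are 9 genes of this pathway, chosen by symbol among the 32285 genes of the count table, with their expression pattern in these data already known. They are Rbp4 (the blood carrier of retinol), Stra6 (its receptor), Rbp7 (a cellular retinol-binding protein), Crabp1 and Crabp2 (cellular retinoic acid-binding proteins), Aldh1a1, Aldh1a2 and Aldh1a3 (the retinal dehydrogenases that make retinoic acid) and Cyp26b1 (a cytochrome P450 that degrades it). Since the genes were picked with these values known, all levels below are descriptions and no test was run. The cells came from dorsal skin of male wild-type mice, digested with collagenase and dispase and sorted as F4/80-positive with high MHC class II, with 1 droplet library of 2 pooled mice aged 9 weeks and 1 library of 2 pooled mice aged 108 weeks. Both libraries lie in 1 count table in which the barcode ending (suffix 1 or suffix 2) marks the library, and no source used here ties an ending to an age. The libraries are therefore called by their suffix, and the ages were not compared.

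The filter on genes, UMIs (unique molecules counted) and mitochondrial share kept 3797 of 5257 barcodes, 2396 with suffix 1 and 1401 with suffix 2, with a median of 10870 UMIs. No kept barcode occurred in both libraries, and a doublet caller marked only 6 cells, so doublets count as untreated. Although the label of both samples is macrophage, 828 of the kept cells were named fibroblast-like from fixed markers that include collagens. Further clusters carried endothelial, keratinocyte, Schwann or muscle markers. Gate genes were lower in these cells than in the macrophage-like cells, to a degree that differed by class. Adgre1, which encodes F4/80, stood at 1.51 CPM (UMIs per 1000000 UMIs) in the Igfbp2 Grem1 fibroblasts and 544 in the macrophage-like cells, and the MHC class II gene H2-Ab1 at 53.6 and 7771. The endothelial-like cells held more, with Adgre1 at 42.8 CPM and H2-Ab1 at 1078, and the Schwann-like cells held 403 of H2-Ab1. The shares of cells given below are therefore shares of what passed this sort and the filters, not of skin.

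Classes of cells were set from fixed marker lists, without the 9 genes and the wider pathway list among the genes used for clustering, and 19 classes had at least 20 cells. The fibroblast-like cells fell into 5 groups. A dermal papilla-like group of 77 cells was led by Prlr and had 6 of 8 dermal papilla markers raised, and its papillary list was raised too. Its fibroblast markers were low, with a summed level of 1593 UMIs per 1000000. The other fibroblast groups stood at 22022 to 161289 and the Schwann-like cells at 5067, so its fibroblast name is the weakest of the 5. The Igfbp2 Grem1 group held 242 cells, the Inmt Gdf10 C3 group 266, the fascia-like group 84 and the remaining fibroblasts 143. Levels are the UMIs of a gene summed over a class per 1000000 UMIs of that class (CPM), given with exact 95% Poisson intervals that cover counting error only. A level is compared between classes for 1 gene at a time, not between genes.

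Of the 9 genes, 8 had at least 20 UMIs in their leading class, and 3 of these (Crabp1, Cyp26b1 and Aldh1a3) stood at least 2-fold above the next class. All 3 were led by a fibroblast group. Over all 10223 genes that could be ranked this way, 25.1% were at least 2-fold above the next class, and 4.41% were so with a fibroblast group in the lead. The genes were chosen on this same contrast, so nothing is read from the difference.

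**Figure D1:**
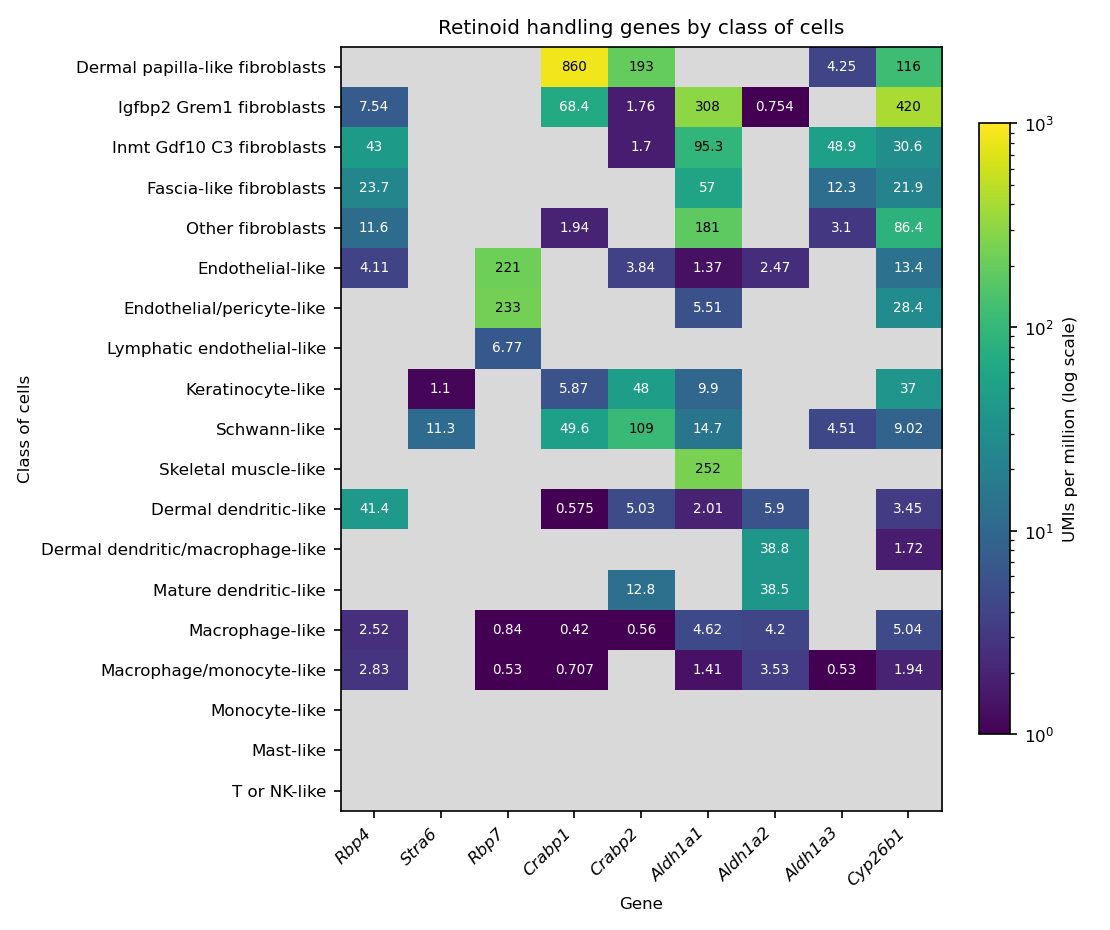
Level of each of the 9 genes (columns) in each of the 19 classes of at least 20 cells (rows), as CPM on a log colour scale with the value written in, both libraries summed. Grey marks fewer than 3 UMIs. Colours are to be read down a column, where Crabp1 peaks at 860 in the dermal papilla-like fibroblasts, Cyp26b1 at 420 in the Igfbp2 Grem1 fibroblasts and Rbp7 at 233 and 221 in the endothelial classes.

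The bases just before the start of 3 of these genes are shown, because the genes mark 3 different classes (Crabp1 the dermal papilla-like group, Cyp26b1 the Igfbp2 Grem1 group and Rbp7 the endothelium). They are from RefSeq on GRCm38.p6, read along the strand of the gene up to the first annotated base, and capitals mark TATAAA or GGGCGG on either strand.
Crabp1, chr9:54764498-54764747, plus strand: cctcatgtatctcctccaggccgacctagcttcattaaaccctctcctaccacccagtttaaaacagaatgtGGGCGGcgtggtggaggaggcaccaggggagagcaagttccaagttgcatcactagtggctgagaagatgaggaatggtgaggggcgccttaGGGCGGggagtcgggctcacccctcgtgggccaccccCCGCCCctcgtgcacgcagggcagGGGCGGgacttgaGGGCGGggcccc
Cyp26b1, chr6:84593909-84594060, minus strand: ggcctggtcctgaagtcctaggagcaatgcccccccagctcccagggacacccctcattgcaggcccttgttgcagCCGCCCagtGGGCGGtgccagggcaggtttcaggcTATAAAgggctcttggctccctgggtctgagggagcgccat
Rbp7, chr4:149454979-149455218, minus strand: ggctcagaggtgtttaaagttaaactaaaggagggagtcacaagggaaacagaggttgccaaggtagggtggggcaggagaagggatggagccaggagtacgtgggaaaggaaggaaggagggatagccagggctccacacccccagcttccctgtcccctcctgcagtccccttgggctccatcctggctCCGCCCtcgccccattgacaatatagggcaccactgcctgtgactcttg

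The Crabp1 stretch held GGGCGG 5 times, the Cyp26b1 stretch 2 times with 1 TATAAA, and the Rbp7 stretch 1 time. These stretches have 250, 152 and 240 bases, so those of Cyp26b1 and Rbp7 are shorter than the windows counted next. The whole 250-base window of Cyp26b1 held GGGCGG 3 times. Over 32851 RefSeq windows of 250 bases before a start, 32.7% held GGGCGG and 12.4% held TATAAA on either strand. The nuclear receptor half-site AGGTCA, searched in the same way, was in 14.02% of all windows and in none of the 12 windows listed for 7 of the 9 genes. This says only that these letters are not in these windows. The table used here holds no entry for Crabp2 and Aldh1a3.

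Crabp1 (ENSMUSG00000032291, chromosome 9, 54764748 to 54773110, GRCm38) was concentrated in the dermal papilla-like fibroblasts. They held 2630 of its 2997 UMIs, a level of 860 CPM (827 to 893), compared with 68.4 CPM (60.5 to 77.0) in the Igfbp2 Grem1 fibroblasts and 49.6 (36.0 to 66.6) in the Schwann-like cells. The level in the dermal papilla-like cells was 12.6-fold (11.1 to 14.3) above that of the next class. It stood at 876 CPM in the library with suffix 1 (2473 UMIs in 55 cells) and at 665 in that with suffix 2 (157 UMIs in 22 cells), and the next class at 62.1 and 75.1. Both libraries thus showed the same order of these classes. With each cell named by its own markers, only 14 cells had the dermal papilla name, at 805 CPM. In that setting 95 papillary-like fibroblasts stood at 694 CPM, so the name carried by the Crabp1-rich cells depends on the naming rule. The Inmt Gdf10 C3 and fascia-like fibroblasts held 0 UMIs of Crabp1, which allows up to 1.28 and 2.63 CPM.

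At a fixed 2000 UMIs per cell, 52.6% (exact binomial interval 40.8 to 64.2) of the dermal papilla-like cells had a UMI of Crabp1, and 75.3% did without thinning. In the macrophage-like cells, which served as the class that should lack it, none of 756 thinned cells did, which allows up to 0.397%, and 0.380% did unthinned. Median depth was 12778 UMIs in the first and 8834 in the second. In a dermal papilla-like cell with any Crabp1 the median was 32 UMIs, and the most was 210. Genes with the most similar profile over the 19 classes were Frem1, Nkd2 and Tnn (Pearson r of log2 CPM with a pseudocount of 10 of 0.956, 0.952 and 0.948), all highest in the dermal papilla-like cells. These classes share the same libraries and differ in depth, so the correlations are descriptions only.

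Crabp2 (ENSMUSG00000004885, chromosome 3, 87948666 to 87953376), the other retinoic acid-binding protein, was also highest in the dermal papilla-like cells but spread over more classes. Its level was 193 CPM (178 to 209, 591 UMIs) there, 109 (88.7 to 133, 97 UMIs) in the Schwann-like cells and 48.0 (40.2 to 57.0, 131 UMIs) in the keratinocyte-like cells. The order of the first pair depended on the library. With suffix 1 the dermal papilla-like cells held 205 CPM and the Schwann-like cells 42.1. With suffix 2 they held 55.1 (13 UMIs) and 179 (78 UMIs). A single Schwann-like cell carried 36 of the 97 UMIs, and 15 of the 126 Schwann-like cells had any. Among those 15 cells, 10 also had Col1a1 and 6 had Krt10, and whether more than 1 cell lay behind these barcodes was not tested. Leaving out the top 5% of doublet scores gave 66.5 CPM in 113 Schwann-like cells and 192 CPM in the dermal papilla-like cells. Keratinocyte-like cells stood at 53.8 and 38.3 CPM in the libraries with suffix 1 and 2, so this class differed less between them. With each cell named by its own markers, 14 dermal papilla-like cells stood at 219 CPM of Crabp2 and 95 papillary-like fibroblasts at 141.

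After thinning, a UMI of Crabp2 was found in 22.4% (13.6 to 33.4) of the dermal papilla-like, 13.7% (6.77 to 23.8) of the keratinocyte-like and 9.82% (5.01 to 16.9) of the Schwann-like cells, and unthinned in 70.1%, 32.5% and 11.9%. The 3 thinned intervals overlap. None of the 756 thinned macrophage-like cells had one, and 0.506% did unthinned. Other fibroblast groups were nearly empty of Crabp2, with 1.76 CPM (7 UMIs) in the Igfbp2 Grem1 group and 1.70 (4 UMIs) in the Inmt Gdf10 C3 group. In the dermal papilla-like cells, Crabp1 and Crabp2 were found together in 48 cells, which is 82.8% of those with Crabp1 and 88.9% of those with Crabp2. Those 48 cells had a median of 66689 UMIs, far above the class median of 12778, so depth moved with the overlap and its part was not tested. The 3 genes most similar to Crabp2 were Srcin1, Eya2 and Fbxo2 (r of 0.974, 0.934 and 0.928 over 19 classes).

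Cyp26b1 (ENSMUSG00000063415, chromosome 6, 84571414 to 84593908), which degrades retinoic acid, was led by the Igfbp2 Grem1 fibroblasts. They held 1672 of its 2690 UMIs at 420 CPM (400.5 to 441), against 116 (104 to 128) in the dermal papilla-like cells and 86.4 (75.4 to 98.5) in the remaining fibroblasts, a lead of 3.63-fold (3.24 to 4.09). This lead differed between the libraries. With suffix 1 the Igfbp2 Grem1 group stood at 156 CPM and the dermal papilla-like group at 118, a ratio of 1.33 (1.14 to 1.55), and with suffix 2 at 704 and 93.2, a ratio of 7.55 (4.97 to 12.1). The remaining fibroblasts stood at 19.0 and 162 CPM, so that with suffix 2 they, not the dermal papilla-like cells, came next. In the library with suffix 1 by itself Cyp26b1 was therefore less than 2-fold above the next class.

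The Igfbp2 Grem1 group was made of 3 sub-clusters that the libraries filled unequally, and Cyp26b1 differed among them. Sub-cluster 6, the one with the most Igfbp2 (2889 CPM) and Grem1 (688 CPM), stood at 751 CPM (704 to 800) and had 10 cells with suffix 1 and 66 with suffix 2. Its level was 679 CPM with suffix 1 and 761 with suffix 2. Sub-cluster 3, led by Coch and with Acta2 at 209 CPM, stood at 562 CPM (518 to 610), 282 with suffix 1 and 660 with suffix 2. Sub-cluster 4 stood at 82.4 CPM (69.3 to 97.4) and had 80 of its 83 cells in the library with suffix 1. The Igfbp2-rich sub-cluster was thus high in both libraries, while sub-cluster 4 was low and nearly confined to 1 library, so that the group's difference between libraries and its makeup cannot be told apart. One more sub-cluster outside the named groups, sub-cluster 8 with Grem1 at 373 CPM and little Igfbp2 (4.14 CPM), held 176 CPM (153 to 201) of Cyp26b1, and 68 of its 70 cells had suffix 2.

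**Figure D2:**
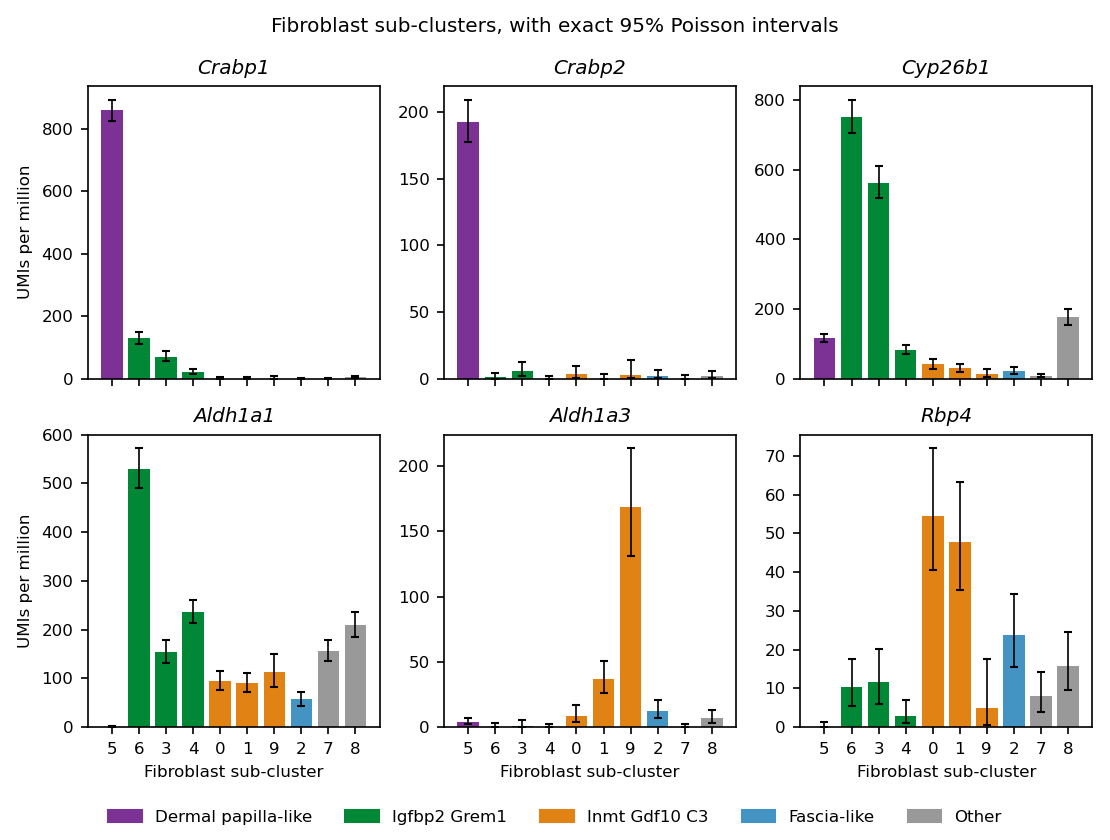
Levels of 6 genes (CPM, linear axes that start at 0) in 10 fibroblast sub-clusters, both libraries summed, with exact 95% Poisson intervals as bars. Colours give the group of each sub-cluster. Crabp1 and Crabp2 are highest in sub-cluster 5 (860 and 193), Cyp26b1 and Aldh1a1 in sub-cluster 6 (751 and 530), Aldh1a3 in sub-cluster 9 (169) and Rbp4 in sub-clusters 0 and 1 (54.6 and 47.8).

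Outside fibroblasts, Cyp26b1 reached 37.0 CPM (101 UMIs) in the keratinocyte-like cells, of which 33 UMIs were in 1 cell, and 28.4 CPM (67 UMIs) in the cluster that carried both endothelial and pericyte markers. At 2000 UMIs per cell, 32.4% (26.5 to 38.7) of the Igfbp2 Grem1 cells and 18.4% (10.5 to 29.0) of the dermal papilla-like cells had a UMI, compared with 1.06% (0.458 to 2.07) of macrophage-like cells. Without thinning these were 60.3%, 57.1% and 2.91%, at median depths of 15686, 12778 and 8834 UMIs. Profiles most similar to that of Cyp26b1 were those of Rerg, Ankrd29 and Apcdd1 (r of 0.941, 0.935 and 0.923).

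Aldh1a1 (ENSMUSG00000053279, chromosome 19, 20492715 to 20643465), a retinal dehydrogenase, was found in nearly every fibroblast group but in none of the dermal papilla-like cells. Its level was 308 CPM (291 to 326, 1225 UMIs) in the Igfbp2 Grem1 group, 181 (165 to 199) in the remaining fibroblasts, 95.3 (83.2 to 109) in the Inmt Gdf10 C3 group and 57.0 (44.0 to 72.6) in the fascia-like group. These 4 intervals do not overlap, but they cover counting error only. The order of the Inmt Gdf10 C3 and fascia-like groups depended on the setting. At resolution 2 the fascia-like group stood at 108 CPM and the Inmt Gdf10 C3 group at 84.0. With each cell named by its own markers they stood at 141 and 95.7. With either cell filter, the lower resolution, more variable genes, doublet removal or either library by itself, the reported order held. The 77 dermal papilla-like cells held 0 UMIs of Aldh1a1 among 3059734, which allows up to 0.980 CPM. Named by their own markers, 14 dermal papilla-like cells also held 0 UMIs of Aldh1a1. The 95 papillary-like fibroblasts of that setting, which were rich in Crabp1 too, stood at 60.3 CPM. Absence of Aldh1a1 from Crabp1-rich cells thus depends on the naming rule. How reads shared with the close mouse paralog Aldh1a7 were counted is not stated in the labels, the file or the methods.

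Next to the Igfbp2 Grem1 group stood the skeletal muscle-like cells with 252 CPM (204 to 309, 93 UMIs in 90 cells), and the ratio of 1.22 (0.988 to 1.52) does not separate them. The order changed between libraries, at 195 and 243 CPM with suffix 1 and 429 and 283 with suffix 2. The muscle-like cells had a median of only 2367 UMIs. After thinning, 39.9% (33.6 to 46.4) of the Igfbp2 Grem1 cells and 28.8% (17.1 to 43.1) of the 52 muscle-like cells deep enough to be thinned had a UMI, compared with 1.06% (0.458 to 2.07) of macrophage-like cells. Unthinned, the shares were 78.5%, 41.1% and 3.92%.

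Within the Igfbp2 Grem1 group, Aldh1a1 followed sub-clusters in a different order from Cyp26b1. Sub-cluster 6 stood at 530 CPM (491 to 571), sub-cluster 4 at 235 (213 to 260) and sub-cluster 3 at 154 (131 to 179). In the library with suffix 1, sub-clusters 6 and 4 were alike at 216 (35 UMIs) and 221 CPM (361 UMIs), while with suffix 2 they stood at 576 (637 UMIs) and 774 (33 UMIs in 3 cells). The lead of sub-cluster 6 thus rests on the summed libraries and does not hold within either. In the whole group, 125 cells had both Aldh1a1 and Cyp26b1, 65.8% of those with Aldh1a1 and 85.6% of those with Cyp26b1, where 78.5% and 60.3% of all 242 cells had each. The most similar profiles to Aldh1a1 were those of Arl1, Vldlr and Yif1a (r of 0.920, 0.909 and 0.901).

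Aldh1a3 (ENSMUSG00000015134, chromosome 7, 66390890 to 66427517) had only 166 UMIs, and 115 of them lay in the Inmt Gdf10 C3 fibroblasts. That group stood at 48.9 CPM (40.4 to 58.7) and the fascia-like group next at 12.3 (6.71 to 20.6, 14 UMIs), a ratio of 3.99 (2.28 to 7.52). By library, the first stood at 86.5 CPM with suffix 1 (53 UMIs) and 35.7 with suffix 2 (62 UMIs), and the second at 7.74 (1 UMI) and 12.8 (13 UMIs). Most of the signal came from sub-cluster 9, 35 cells led by Smpd3, Sfrp2 and Pla1a and with Pi16 at 3221 CPM, where Aldh1a3 reached 169 CPM (131 to 213), 194 with suffix 1 and 134 with suffix 2. This sub-cluster had markers of both groups raised nearly alike, with a mean log2 excess of 2.01 for the Inmt Gdf10 C3 list and 1.89 for the fascia list. Under 3 of the other settings (the looser cell filter, resolution 0.5 and 3000 variable genes) the fascia-like group was larger and stood at 42.9 to 46.8 CPM, above the Inmt Gdf10 C3 group at 6.01 to 8.73, so the group in the lead depends on where the names are drawn. Sub-cluster 1, led by Sult1e1, Sfrp4 and Cxcl14, held 37.1 CPM (26.2 to 50.9), and sub-cluster 0 held 8.73 (3.77 to 17.2).

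A UMI of Aldh1a3 was in 5.53% (2.98 to 9.27) of the thinned and 16.9% of the unthinned Inmt Gdf10 C3 cells, at a median depth of 8447 UMIs, and in none of the thinned and 0.127% of the unthinned macrophage-like cells. Of the 45 cells with Aldh1a3, 28 also had Aldh1a1 (62.2%, where 45.5% of the group did). Profiles most like it over the classes were those of Wnt2, Sfrp4 and Angpt4 (r of 0.9502, 0.948 and 0.946).

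Aldh1a2 (ENSMUSG00000013584, chromosome 9, 71215789 to 71296243), unlike the other dehydrogenases of this set, was highest in cells of the myeloid lineage. A cluster of 257 cells with both dermal dendritic and macrophage markers, led by Retnla, Lyz1 and Fcrls and rich in Fn1 (2378 CPM), held 158 of the 282 UMIs at 38.8 CPM (33.0 to 45.4). The mature dendritic-like cells, 22 cells with Ccr7 and Ccl22, held 38.5 CPM (19.9 to 67.3) from 12 UMIs, so these classes cannot be put in order. The dermal dendritic-like class stood at 5.90 CPM (4.23 to 8.00), with 21 of its 41 UMIs in 1 cell, and the macrophage-like class at 4.20 (2.83 to 5.995). Cluster 14, a dermal dendritic-like cluster described below for Rbp4, held 0 UMIs, which allows up to 2.12 CPM. With each cell named by its own markers no class carries both names. In that setting 29 mature dendritic-like cells stood at 87.9 CPM, the dermal dendritic-like cells at 8.96 and the macrophage-like cells at 9.88.

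The level of Aldh1a2 differed between libraries. The Fn1-rich cluster stood at 46.8 CPM with suffix 1 (150 UMIs in 210 cells) and at 9.28 with suffix 2 (8 UMIs in 47 cells). Over all kept cells, 264 UMIs had suffix 1 and 18 had suffix 2, or 8.05 and 1.00 CPM. This difference stands between 2 libraries with no replicate. After thinning, 8.59% (5.46 to 12.7) of the Fn1-rich cluster had a UMI, against 0.373% (0.00945 to 2.06) of endothelial-like cells. Unthinned these were 31.9% and 1.72%, at median depths of 15151 and 9252 UMIs. None of the 22 thinned mature dendritic-like cells had one, which allows a share of up to 13.6%. Tspan33, Upb1 and Bcl2a1a were most similar over the classes (r of 0.878, 0.864 and 0.851).

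**Figure D3:**
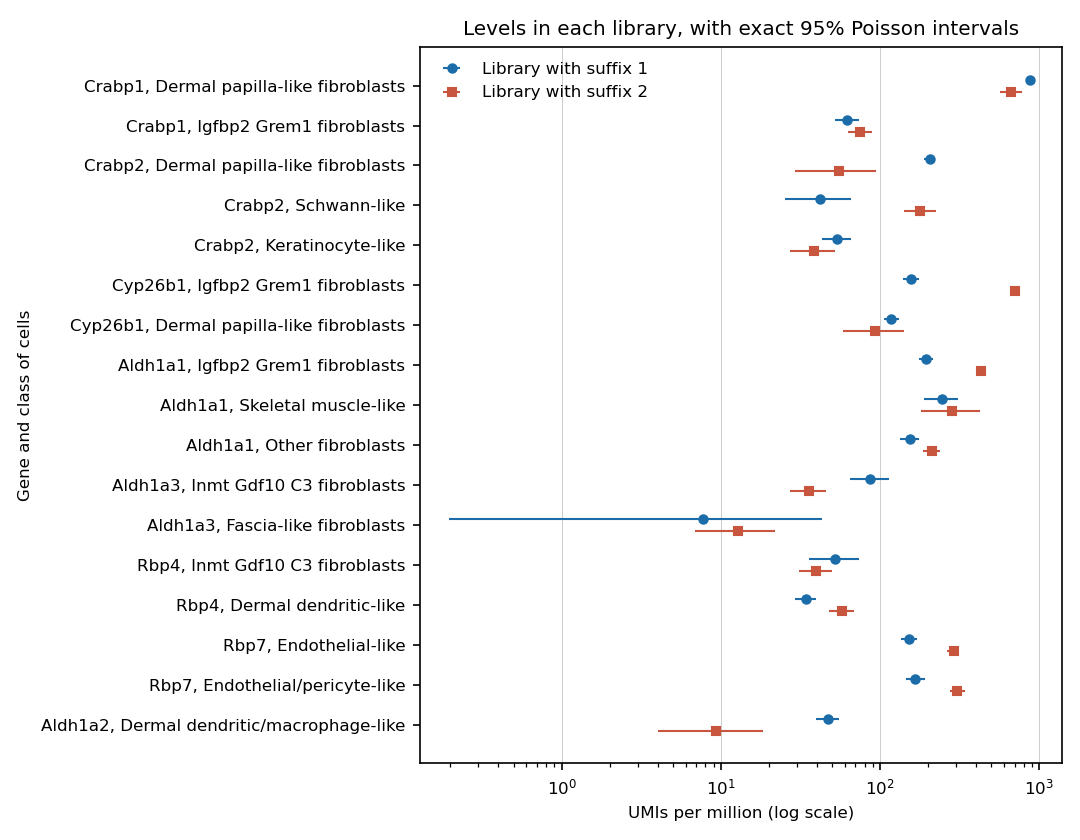
Level of each gene in its leading and next classes, as CPM on a log axis, separately in the library with suffix 1 (circles) and that with suffix 2 (squares), with exact 95% Poisson intervals. The libraries lie close for Crabp1 in the Igfbp2 Grem1 fibroblasts (62.1 and 75.1) and far apart for Cyp26b1 there (156 and 704) and for Aldh1a2 in the dermal dendritic/macrophage-like cluster (46.8 and 9.28).

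Rbp4 (ENSMUSG00000024990, chromosome 19, 38116629 to 38125281), the carrier that takes retinol through the blood, appeared in a pair of unrelated classes. The Inmt Gdf10 C3 fibroblasts held 43.0 CPM (35.0 to 52.2, 101 UMIs) and the dermal dendritic-like cells 41.4 (36.8 to 46.5, 288 UMIs), a ratio of 1.04 (0.818 to 1.31), so these 2 classes were not separated. By library the fibroblasts stood at 52.2 and 39.7 CPM with suffix 1 and 2, and the dendritic-like cells at 34.1 and 57.6. The fascia-like fibroblasts came after them with 23.7 CPM (15.6 to 34.4), and the dermal papilla-like cells held 0 UMIs, with a limit of 0.980 CPM.

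Among the dendritic-like cells, Rbp4 lay almost wholly in cluster 14. These 104 cells, led by Cd209e, Apod and Timd4 and with Ccr7 at 350 CPM, held 246 of the class's 288 UMIs at 174 CPM (153 to 197). The level was 159 CPM with suffix 1 and 194 with suffix 2, so it was high in both libraries. The larger dermal dendritic-like cluster 2, with 343 cells led by Cd209a, Klrb1b and Ear2, held 6.47 CPM (4.397 to 9.19), and the mature dendritic-like cells with the most Ccr7 (3851 CPM) held 1 UMI. Of the 72 dermal dendritic-like cells with Rbp4, 39 had Timd4 (54.2%, where 19.8% of the class did) and 66 had Cd209a. Under 4 of the other settings most of this signal fell in a cluster that carried a second dendritic name beside the dermal one, at 66.0 to 172 CPM of Rbp4, so that the class left as dermal dendritic-like held only 1.36 to 15.4. The fibroblast gene Dcn was in 29.2% of the 72 cells with Rbp4 and in 29.0% of the whole class, and fibroblast RNA was not tested as a source.

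**Figure D4:**
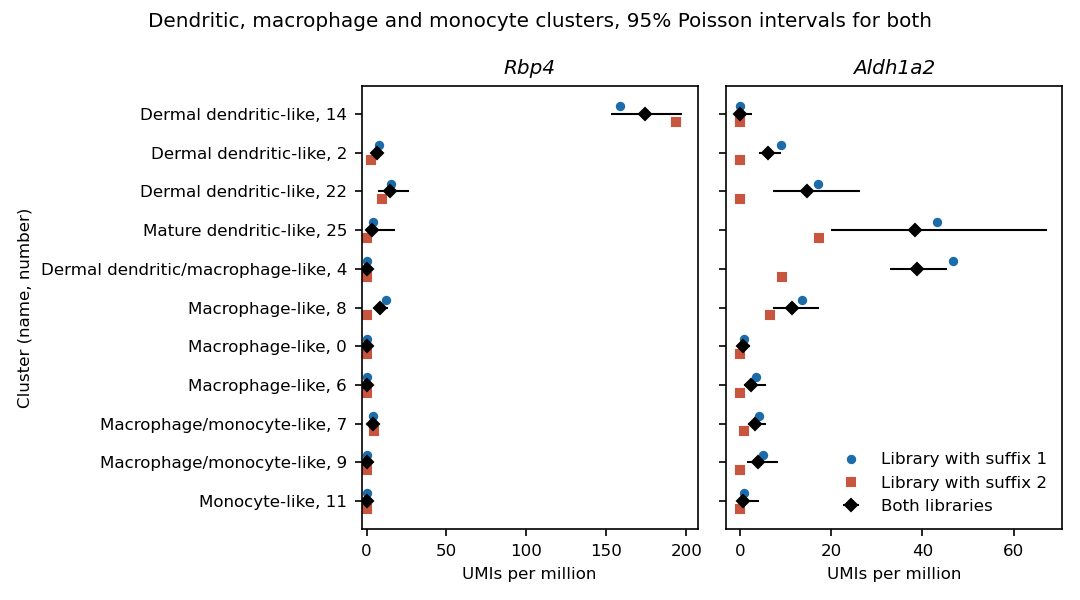
Levels of Rbp4 and Aldh1a2 (CPM, linear axes) in the 11 dendritic, macrophage and monocyte clusters. Diamonds give both libraries summed with exact 95% Poisson intervals, and circles and squares the libraries with suffix 1 and 2. Rbp4 is high in cluster 14 (174) and Aldh1a2 in cluster 4 (38.8) and cluster 25 (38.5).

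In the fibroblasts, Rbp4 was highest in sub-clusters 0 and 1, at 54.6 CPM (40.5 to 71.9) and 47.8 (35.4 to 63.2), whose intervals overlap. Sub-cluster 0 also carried 3 adipocyte markers raised, among them Adipoq at 76.4 CPM, and RNA of fat cells was not tested as a source. With each cell named by its own markers, 2 adipocyte-like cells stood at 371 CPM of Rbp4 and the Inmt Gdf10 C3 cells at 34.1. As grouped here, no cell of the Inmt Gdf10 C3 group held more than 14 of its 101 UMIs. Sub-cluster 1 held 0 Adipoq at nearly the same Rbp4 level. Sub-cluster 9, the one high in Aldh1a3, stood at 4.89 CPM (0.592 to 17.7, 2 UMIs). Of the Inmt Gdf10 C3 cells, 9.36% (5.96 to 13.8) had a UMI of Rbp4 after thinning and 16.5% unthinned, and of the dermal dendritic-like cells 6.78% (4.68 to 9.44) and 15%, against 0.373% and 2.07% of the endothelial-like cells. Median depths of these 3 classes were 8447, 14455 and 9252 UMIs. Pi16, Abca6 and Kcnip3 had the most similar profiles (r of 0.824, 0.811 and 0.807).

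Rbp7 (ENSMUSG00000028996, chromosome 4, 149449687 to 149454978), a cellular retinol-binding protein, was an endothelial gene in these cells. The endothelial-like class held 805 UMIs at 221 CPM (206 to 236) and the cluster with endothelial and pericyte markers 551 at 233 (214 to 254), together nearly all of its 1384 UMIs. The ratio of 1.06 (0.947 to 1.18) does not separate them. Both were higher with suffix 2, at 289 and 306 CPM, than with suffix 1, at 153 and 167. Where 5 of the other settings set pericyte or vascular smooth muscle-like cells apart, these held only 10.2 to 26.9 CPM of Rbp7. The lymphatic endothelial-like cells held 6.77 CPM (2.48 to 14.7, 6 UMIs), so Rbp7 in the cluster with both marker sets was 34.5-fold (15.7 to 94.3) above them. All 6 of these UMIs had suffix 1, where the fold was 15.3 (6.93 to 42.3).

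Blood endothelial clusters differed in Rbp7. Cluster 5, with 242 cells led by Fabp4, Tm4sf1 and Aqp1 and with Gpihbp1 of capillaries among its top genes, stood at 290 CPM (269.6 to 311), 199 with suffix 1 and 396 with suffix 2. Cluster 20, with 48 cells led by Selp, the venular adhesion receptor P-selectin, stood at 48.7 CPM (36.2 to 64.0), 4.56 with suffix 1 (2 UMIs) and 80.4 with suffix 2 (49 UMIs). Cluster 20 was lower in both libraries. After thinning, 22.4% (17.5 to 27.9) of the endothelial-like and 0.132% (0.00335 to 0.735) of the macrophage-like cells had a UMI, and 47.6% and 0.380% unthinned, at median depths of 9252 and 8834. The most similar profiles were those of Tcf15, Sox17 and Slc26a10 (r of 0.996, 0.991 and 0.990).

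**Figure D5:**
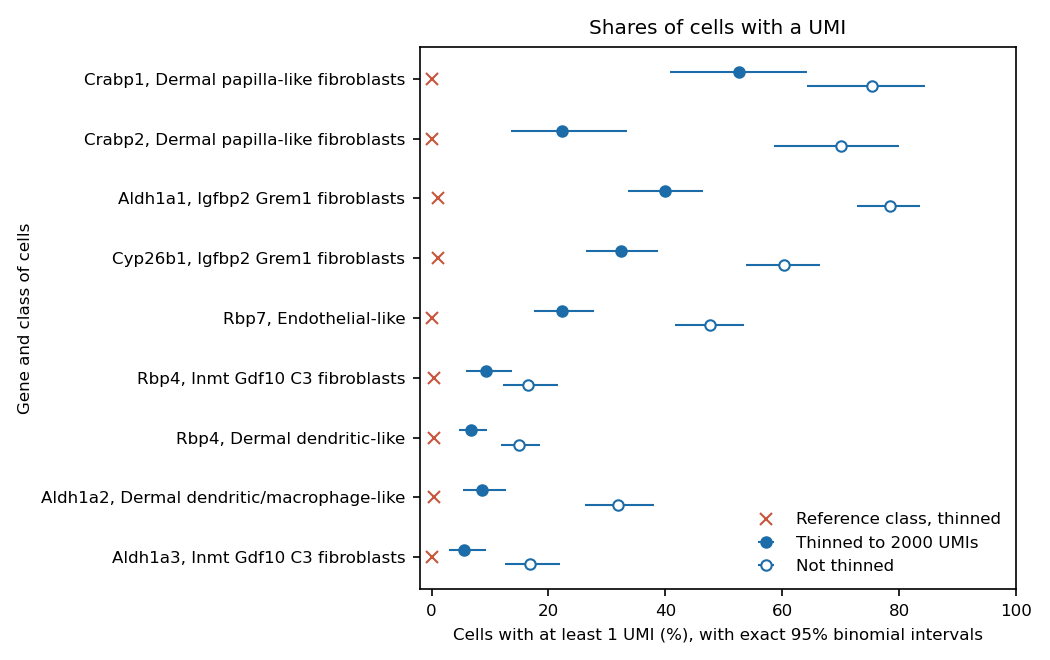
Percent of cells with at least 1 UMI of a gene in the named class, for the genes other than Stra6, after thinning each cell to 2000 UMIs (filled circles) and without thinning (open circles), with exact 95% binomial intervals. Crosses give the thinned share in the reference class, endothelial-like cells for Rbp4 and Aldh1a2 and macrophage-like cells for the other genes. All crosses lie at or below 1.06%, and the thinned shares of the genes shown run from 5.53% for Aldh1a3 to 52.6% for Crabp1.

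Stra6 (ENSMUSG00000032327, chromosome 9, 58063788 to 58153996), the receptor for the Rbp4 protein, was barely detected, with 13 UMIs in all kept cells. The Schwann-like cells held 10 of them in 7 cells (11.3 CPM, 5.40 to 20.7), 4 with suffix 1 and 6 with suffix 2, and the keratinocyte-like cells held the other 3. Without the barcodes in the top 5% of doublet scores the Schwann-like level was 6.93 CPM. At 2000 UMIs per cell, 0.893% (0.0226 to 4.87) of the Schwann-like cells had a UMI of Stra6, and 5.56% did unthinned. Among the 7 Schwann-like cells with Stra6, 5 also had Crabp2. As grouped here, no fibroblast group, endothelial class or myeloid class held a UMI of Stra6. With each cell named by its own markers, the fascia-like fibroblasts stood at 0.237 CPM and the remaining fibroblasts at 0.649. With the stricter cell filter the Inmt Gdf10 C3 fibroblasts stood at 0.839. At this depth the level in the endothelial-like cells could still be up to 0.822 CPM.

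The rest of the pathway was read from a list of 44 further genes, all in the table. Of these, 32 had at least 20 UMIs in their leading class and 11 stood at least 2-fold above the next class, none of them led by a fibroblast group. That is 34.4% of the ranked genes, beside the 25.1% of all ranked genes and the 4.41% with a fibroblast group in the lead given above, so nothing particular to the pathway is read from these counts. Among genes for transport and uptake, Scarb1, a lipoprotein receptor that also takes up carotenoids, stood at 754 CPM in the endothelial-like cells, 2.33-fold above the next class. Rbp2, a cellular retinol-binding protein, stood at 13.6 CPM in the keratinocyte-like cells. Its next class, the lymphatic endothelial-like cells, held 5 UMIs. The interval of the log2 ratio, -0.085 to 2.97, does not separate these classes. Among genes for storage as esters, Lrat, which esterifies retinol, stood at 24.1 CPM in the endothelial-like cells, Ces1d at 29.7 in the keratinocyte-like cells and Dgat1 at 270.4 in the T or NK-like cells.

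The genes that convert retinol and retinal were spread over several classes. Rdh11 (46.2 CPM) and Rdh12 (29.3 CPM) were highest in the keratinocyte-like cells, Rdh5 (56.3 CPM) in the Schwann-like cells and Rdh14 (89.6 CPM) in the skeletal muscle-like cells, each at least 2-fold above the next class. The other 7 ranked genes of this step were not, among them Rdh10, the main retinol dehydrogenase, at 50.8 CPM in the fascia-like fibroblasts and 50.7 in the Schwann-like cells. Adh7, an alcohol dehydrogenase that oxidises retinol, had similar levels of 115, 105 and 104 CPM in the remaining, the Inmt Gdf10 C3 and the Igfbp2 Grem1 fibroblasts. Of the other degrading enzymes, Cyp26a1 had 9 UMIs and Cyp26c1 had 1 in all kept cells, and Cyp2s1 stood at 9.54 CPM in the keratinocyte-like cells. The Schwann-like cells came next for Cyp2s1 with 4 UMIs. The interval of the log2 ratio, -0.446 to 3.06, does not separate these classes.

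None of the 7 ranked receptor and delivery genes led by 2-fold, a count too small to set apart from the 25.1% over all ranked genes. Rarg, a retinoic acid receptor, was highest in the dermal papilla-like cells at 82.7 CPM, close to the keratinocyte-like cells at 71.1, and Rara stood at 151 CPM in the mast-like and 126 in the macrophage-like cells. Ppard was highest in the dermal papilla-like cells at 131 CPM, 1.98-fold above the next class. Of 4 ranked genes known to respond to retinoic acid, Rarres1 stood at 134 CPM in the keratinocyte-like cells, 2.88-fold above the next class, and Rarres2, Tgm2 and Hic1 did not reach 2-fold.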

How the data were processed

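Single-cell RNA of sorted dorsal skin cells was counted by the authors with Cell Ranger 4.0.0 on mm10, per the labels, and deposited as 1 table of whole-number UMI counts for both libraries without normalization. The annotation, and whether cells were filtered before deposit, is not stated there. Both pools come from whole dorsal skin, and no cell was cultured.

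From these counts, cells with at least 500 genes, 1000 UMIs and at most 10% mitochondrial UMIs were kept. Counts were scaled to 10000 per cell and logged, and 2000 variable genes without the 9 members and the 44 pathway genes, 30 principal components and 15 neighbours per cell were used for Leiden clustering (resolution 1, seed 1) in Python 3.11.15 with scanpy 1.11.5, leidenalg 0.10.2, igraph 0.11.9, numpy 2.4.6, scipy 1.17.1 and pandas 2.3.3. Figures used matplotlib 3.10.9. A cluster was named from 19 marker lists when at least 3 markers stood at 20 CPM and 2 times the median cluster, with a lead of 1 in mean log2 excess over the next list. Without that lead it carries both names. No name was given where the 10 leading genes held more markers of a different list. Fibroblast-like cells were clustered again into 12 sub-clusters and given to 5 fixed group lists (mean excess of 1 and 2 raised markers), and sub-clusters with 5 raised markers of another type were left out (16 cells). The names are therefore rebuilt, which the ending like marks, and differences from the study may come from them.

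The members, the lists and the tests were chosen with earlier results of these data known, and the naming rule was set after clusters had been looked at. All 9 members are named, with the 3 genes most like each by correlation over classes among genes with at least 100 UMIs, the pathway genes at least 2-fold above the next class, and other genes of the pathway list as members of it. With 1 library per age there is no replicate, so no test and no comparison of ages was made. Intervals are at 95%, for a ratio exact from both UMI sums. Where the lower class had 0 UMIs it was set to 3 counts. For shares, cells were thinned to 2000 UMIs and shallower cells left out. PCR and free RNA are not covered by the intervals. The scripts were tested on simulated data. Alternatives were other cell filters, resolutions, numbers of variable genes, doublet removal, each library by itself, marker gating per cell, means over cells and other thinning. Gene positions are from GENCODE vM21 on GRCm38, where 32158 of 32285 gene IDs were found.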

Additional observations from a re-analysis of the deposited data

Results flagged for a closer look

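The barcodes that the filter on cells left out, 1460 in all with 5403713 UMIs, also held UMIs of the retinoid handling genes. Such barcodes enter none of the main levels above, only values from the looser cell filter. More than the 3 counts used as a floor were found for 8 of the 9 genes. These were 129 UMIs of Cyp26b1, 121 of Aldh1a1, 110 of Rbp7, 67 of Crabp2, 31 of Crabp1, 30 of Rbp4, 8 of Stra6 and 8 of Aldh1a3. Over these barcodes, Cyp26b1 stood at 23.9 CPM (19.9 to 28.4), Aldh1a1 at 22.4 (18.6 to 26.8) and Rbp7 at 20.4 (16.7 to 24.5). Stra6, with 8 UMIs there and 13 in the kept cells, stood at 1.48 CPM (0.639 to 2.92) against 0.256 (0.136 to 0.438).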

How the results depend on the processing

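No result has a replicate or a test, and no paired analysis was possible because each age has 1 library and no source ties the barcodes to an age. Ratios below are log2 of the leading over the next class as in the report, levels are CPM in the leading class, and only values that left the reported interval or changed sign are given. The cause was not tested unless stated. Crabp1 stayed above the class reported next to it in every setting that gave a value, with log2 ratios from 3.07 to 4.36, and so did Cyp26b1, from 0.41 to 2.92.

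Reversed were the ratios of Aldh1a3 with the looser filter (-2.79), resolution 0.5 (-2.42) and 3000 variable genes (-2.88), of Rbp4 with suffix 2 (-0.54), as a mean over cells (-0.10) and without the top 5% of doublet scores (-0.12), of Rbp7 as a mean over cells (-1.02) and without those doublet scores (-0.034), of Aldh1a2 with resolution 0.5 (-0.19) and 3000 variable genes (-0.0036), of Aldh1a1 with suffix 1 (-0.32) and of Crabp2 with suffix 2 (-1.70).

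With the stricter cell filter, the ratio was 4.39 for Rbp4, 4.36 for Crabp1 and 1.57 for Cyp26b1, and the level 28.5 for Rbp4, 819 for Crabp1, 49.5 for Aldh1a2, 61.2 for Aldh1a3 and 364 for Cyp26b1. With the looser one, the ratio was 5.42 for Rbp4, 3.87 for Crabp1 and 1.51 for Cyp26b1, and the level 58.4 for Rbp4, 826 for Crabp1, 289.8 for Aldh1a1, 6.22 for Aldh1a3 and 364 for Cyp26b1. At resolution 0.5, the ratio was 0.39 for Rbp4, 3.86 for Crabp1 and 1.61 for Cyp26b1, and the level 54.6 for Rbp4, 789 for Crabp1, 178 for Crabp2, 8.73 for Aldh1a3 and 366 for Cyp26b1. At resolution 2, the ratio was 2.96 for Rbp4, 0.44 for Rbp7 and 1.25 for Aldh1a1, and the level 29.96 for Rbp4, 299 for Rbp7, 783 for Crabp1, 176 for Crabp2, 46.7 for Aldh1a2 and 38.9 for Aldh1a3. With 3000 variable genes, the ratio was 1.88 for Rbp4, 0.33 for Rbp7 and 1.64 for Cyp26b1, and the level 56.5 for Rbp4, 287 for Rbp7, 789 for Crabp1, 178 for Crabp2, 6.01 for Aldh1a3 and 374 for Cyp26b1. Without the top 5% of doublet scores the ratio of Crabp2 was 1.53. The Rbp4 ratios with either filter, resolution 2 and 3000 variable genes are over what was left as dermal dendritic-like, not over the next highest class. A dendritic cluster with a second name stood above the Inmt Gdf10 C3 fibroblasts in each. It held 66.0 CPM of Rbp4 with the stricter filter, 124 with the looser one, 172 at resolution 2 and 125 with 3000 variable genes. The fascia-like fibroblasts also stood above the Inmt Gdf10 C3 group with the stricter filter (33.3 CPM) and at resolution 2 (67.0 CPM).

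With suffix 1 by itself, the ratio was 0.62 for Rbp4, 2.28 for Crabp2 and 0.41 for Cyp26b1, and the level 52.2 for Rbp4, 167 for Rbp7, 195 for Aldh1a1, 46.8 for Aldh1a2, 86.5 for Aldh1a3 and 156 for Cyp26b1. With suffix 2, the ratio was 3.15 for Crabp1 and 2.92 for Cyp26b1, and the level 306 for Rbp7, 665 for Crabp1, 55.1 for Crabp2, 429 for Aldh1a1, 9.28 for Aldh1a2, 35.7 for Aldh1a3 and 704 for Cyp26b1. With each cell named by its own markers, the ratio was 2.35 for Aldh1a1 and 0.62 for Aldh1a3, and the level 34.1 for Rbp4, 602 for Aldh1a1, 26.2 for Aldh1a3 and 718 for Cyp26b1. As a mean over cells, the ratio was 3.07 for Crabp1 and 2.15 for Cyp26b1, and the level 171 for Rbp7, 666 for Crabp1, 175 for Crabp2 and 469 for Cyp26b1.

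Thinned to 1000 UMIs, the share of cells with a UMI in the leading class was 2.63% for Rbp4, 12.7% for Rbp7, 13.0% for Crabp2, 24.0% for Aldh1a1 and 2.33% for Aldh1a2. Not thinned, it was 16.5% for Rbp4, 5.56% for Stra6, 40.5% for Rbp7, 75.3% for Crabp1, 70.1% for Crabp2, 78.5% for Aldh1a1, 31.9% for Aldh1a2, 16.9% for Aldh1a3 and 60.3% for Cyp26b1. Both the UMIs per cell and the cells deep enough to enter change with the thinning.

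Within the reported interval stayed 40 of the other ratios and 35 of the other levels. Some settings gave no value because a class was missing or under 20 cells, for Rbp7 both filters and resolution 0.5, for Aldh1a2 both filters and either library, for Aldh1a3 suffix 1, and with per-cell names the classes of Crabp1, Crabp2, Rbp7 and Aldh1a2 and the class next for Cyp26b1. Depth limits Stra6 (13 UMIs), Aldh1a3 (166) and Aldh1a2 (282) most.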
